A study of Xenopus tropicalis with 26 samples.

Results

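Divergent, or head-to-head, features are neighbours on opposite strands whose starts face each other, so that transcription runs outward from the space between them. In embryos of Xenopus tropicalis, the western clawed frog, 681 such pairs were found with at most 1000 bp between the partners. A pair was taken where a feature on the minus strand ended before a feature on the plus strand of the same scaffold started, with a gap (plus start less minus end) above 0 and up to 1000 bp and with no other feature sharing a base with the gap. The 681 pairs held 1362 of the 27836 annotated features of the study, or 4.89%. They were set against 1609 pairs of the same layout whose partners lay over 5 and up to 20 kb apart, and no feature was in both sets. Position and strand chose the pairs, and no expression value did.

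In animal genomes many genes lie head to head, and the sequence between such partners often works as a bidirectional promoter from which both are transcribed. Such promoters are often rich in CpG and often serve genes with housekeeping roles. In the early frog embryo the first cleavages run on RNA that the mother laid down in the egg, and the embryo's own genome is switched on at the midblastula transition, when many maternal transcripts are also cleared. Stage 6 and stage 8 come before or at about that transition, stage 11 is in gastrulation, stage 15 in neurulation and stage 28 at the tailbud stage.

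The tested embryos were pools of whole embryos of 2 families. Whole transcriptome target sequencing (WTTS), which reads the polyadenylated ends of fragmented RNA, was made over 5 stages (6, 8, 11, 15, 28) with 1 library for each family and stage, and RNA-seq over the first 3 of them likewise. No genotype, strain or treatment was given for any group. The other libraries were 7 WTTS trials and 1 RNA-seq library of one RNA pool from 3 male and 3 female adults, and 2 technical repeats of WTTS on 1 adult female; they entered no stage comparison. Feature totals were 1536128 to 6276132 counts in the embryo WTTS libraries and 110710673 to 131001449 counts in the embryo RNA-seq libraries. The members of divergent pairs held 6.08% to 8.57% of the counts of an embryo WTTS library and 6.37% to 7.58% of those of an embryo RNA-seq library. With pools of whole embryos, fewer cells of a type and less RNA per cell cannot be told apart.

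The 681 pairs were packed tightly. The median gap was 107 bp (quartiles 56 and 241 bp, range 1 to 982 bp), 323 pairs (47.4%) had a gap of at most 100 bp, and 5 pairs had a gap of 1 bp. By comparison, 487 convergent pairs (partners on opposite strands whose ends face each other) within 1000 bp had a median gap of 445 bp, and 581 tandem pairs (both on one strand) had a median gap of 455 bp. Members spanned a median of 14.4 kb, against 14.3 kb for the features of the distant pairs and 10.8 kb for all features. In 482 of the 681 pairs neither partner overlapped a further feature, and in 199 pairs at least 1 did. For those 199 the counts cannot be split surely between overlapping features, since the counting was not stated to use strand. At the limit itself, the last pair inside was XLOC_027278 and XLOC_026184 on scaffold_9 with a gap of 982 bp, and the first outside was XLOC_007753 and XLOC_006486 on scaffold_2 with a gap of 1006 bp. XLOC_026184 was nearly undetected, at a mean of 0.299 CPM over the WTTS libraries, so that no stage profile of the inside pair is given; the outside partners averaged 3.01 and 2.83 CPM.

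Both partners of a divergent pair were mostly present in the embryo. Levels were normalised counts (CPM), and a feature counted as present at a mean of at least 1 CPM over the libraries of a method. In WTTS both partners were present in 527 of the 681 divergent pairs (77.4%), against 722 of the 1609 distant pairs (44.9%). Exactly 1 partner was present in 111 divergent pairs (16.3%), against 622 distant pairs (38.7%), and neither in 43 (6.31%), against 265 (16.5%). The single features differed in the same direction: 85.5% of the members of divergent pairs were present, against 64.2% of the features of distant pairs and 55.6% of all features. If partners were present independently of each other, these shares multiply to 73.2% of divergent pairs and 41.2% of distant pairs with both present, so both observed shares lay a few points above the product. In RNA-seq both partners were present in 513 divergent pairs (75.3%), against 556 distant pairs (34.6%), with products of 69.7% and 29.8%.

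The higher rate of detection of divergent pairs was seen in every library. At least 1 count for both partners was found in 79.6% to 86.6% of divergent pairs over the 10 embryo WTTS libraries, against 50.1% to 65.6% of distant pairs. The ranges were 91.8% to 96.2% and 71.3% to 86.5% over the 6 embryo RNA-seq libraries. In the 2 repeats of the adult female they were 85.6% to 89.1% and 63.0% to 71.3%. The difference between the layouts is a description without a test, here and below, since pairs are not replicates of a condition.

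Between stages 8 and 11 more members of divergent pairs fell than rose in RNA-seq. A feature was called where the quasi-likelihood test of edgeR, fitted on all features, gave an adjusted p below 0.05, and 1285 of the 1362 members passed the filter on low counts and were tested. Of these, 740 (57.6%) were called, near the background of 58.5 percent of all 19413 tested features. Higher levels at stage 11 were called for 200 members (15.6%), against a background of 30.3 percent, and lower levels for 540 members (42.0%), against 28.2 percent. These counts depended on the stage 8 libraries: without stage 8 family 1 there were 118 higher (9.07%, background 19.2 percent) and 433 lower (33.3%, background 21.4 percent). Without stage 8 family 2 there were 120 higher (9.23%, background 19.7 percent) and 440 lower (33.8%, background 21 percent). Of the 2522 tested features of distant pairs, 769 (30.5%) were called higher and 732 (29.0%) lower, near the background in both directions. The median log2 change (stage 11 minus stage 8) was -0.48 over the tested members, 0.03 over the features of distant pairs and 0.06 over all tested features. Among those called, members that rose did so by a median log2 change of 1.96, against 2.99 over all features that rose, while the median of those that fell was -1.53, against -1.51.

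The contrast with the background was smaller among the present features. With those below 1 CPM in RNA-seq left out, a restriction added after the data had been seen, 150 of 1137 members (13.2%) were called higher, against a background of 22.4 percent, and 536 (47.1%) lower, against 39.1 percent. The features of distant pairs gave 404 of 1758 (23.0%) higher and 712 (40.5%) lower. The median log2 change was then -0.62 over the members, -0.37 over the features of distant pairs and -0.35 over all. The filter is itself tied to direction. Its mean is over libraries mostly of the earlier stages, so features that rose are removed more readily than features that fell. The background went from 30.3 to 22.4 percent higher and from 28.2 to 39.1 percent lower. The smaller contrast thus cannot be read as an effect of level alone.

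WTTS gave the same order with fewer calls. Of the 1100 tested members, 232 (21.1%) were called between stages 11 and 8, beside a background of 21.4 percent. They were 69 higher (6.27%, background 11.4 percent) and 163 lower (14.8%, background 10 percent). The median log2 change was -0.32 over the members and 0.02 over all tested features. Fits without 1 library of stage 8 or 11 left a single library in that group and called fewer members. The share of all features called in those fits is not given here, so the fall cannot be read as a trait of the members. The log2 changes of WTTS and RNA-seq correlated at r = 0.775 (rho = 0.761) across 961 members. These members were tested in both methods at a mean of at least 1 CPM. Over all features r was 0.774, across 13691 features. Only 13425 features were tested in RNA-seq at a mean of at least 1 CPM, so not all 13691 can have met that level there. The values for members and for all features are thus not a matched comparison. Both are descriptions across features that share libraries.

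After stage 11 the share of members called lay below the background in either direction together. Between stages 15 and 11, 87 members (7.91%) were called in WTTS, against a background of 10.8 percent. They were 44 higher (4%, background 6.85 percent) and 43 lower (3.91%, background 3.96 percent). Between stages 28 and 15, 150 members (13.6%) were called, against 18.2 percent, while the features of distant pairs gave 383 of 1876 (20.4%). The called members were 72 higher (6.55%, background 9.88 percent) and 78 lower (7.09%, background 8.37 percent). With the family as a block in the model, 176 members (16.0%, background 18.6 percent) were called between stages 15 and 11. They were 84 higher (7.64%, background 10.9 percent) and 92 lower (8.36%, background 7.63 percent). The blocked fit called 228 members (20.7%, background 26.6 percent) between stages 28 and 15. In each direction there were 114 (10.4%, background 13.9 percent higher and 12.7 percent lower). Without the block, leaving out 1 library of a compared stage left a single library in that group, and fewer members were called in both comparisons. For these fits too the share of all features called is not given, so the fall cannot be read as a trait of the members.

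The largest group of members had its highest mean at stage 6, which the test did not separate from stage 8. Of the 1054 members of the 527 pairs with both partners present in WTTS, 36.1% had their highest mean at stage 6 and 19.2% at stage 8. The shares were 12.1% for stage 11, 13.5% for stage 15 and 19.1% for stage 28. Of the features of distant pairs, 26.7% peaked at stage 6 and 12.5% at stage 8. The shares were 13.9% for stage 11, 16.4% for stage 15 and 30.5% for stage 28, so that their largest group was the latest stage. Between stages 8 and 6, 0 of the 14013 features tested in WTTS were called, the 1100 tested members included. The split of peaks between those stages is thus not resolved, and the group sizes depend on counting them apart. The peak shares over all features are not given here.

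The stage profiles of the partners were only loosely related. For each pair, Pearson's r was taken between the partners' mean log2(CPM + 1) values over the 5 WTTS stages, with n = 5 stage means behind each r. Over the 527 divergent pairs the median r was 0.212 (quartiles -0.488 and 0.692), against 0.0901 (quartiles -0.530 and 0.660) over 722 distant pairs. An r of at least 0.5 was found in 38.1% of divergent pairs, against 34.5% of distant pairs, and an r of -0.5 or lower in 23.7%, against 26.3%. An r of at least 0.9 was equally frequent, with 46 divergent pairs (8.73%) and 63 distant pairs (8.73%). Both distributions thus filled nearly the whole range, and the medians lay far closer together than the quartiles of either.

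**Figure D1:**
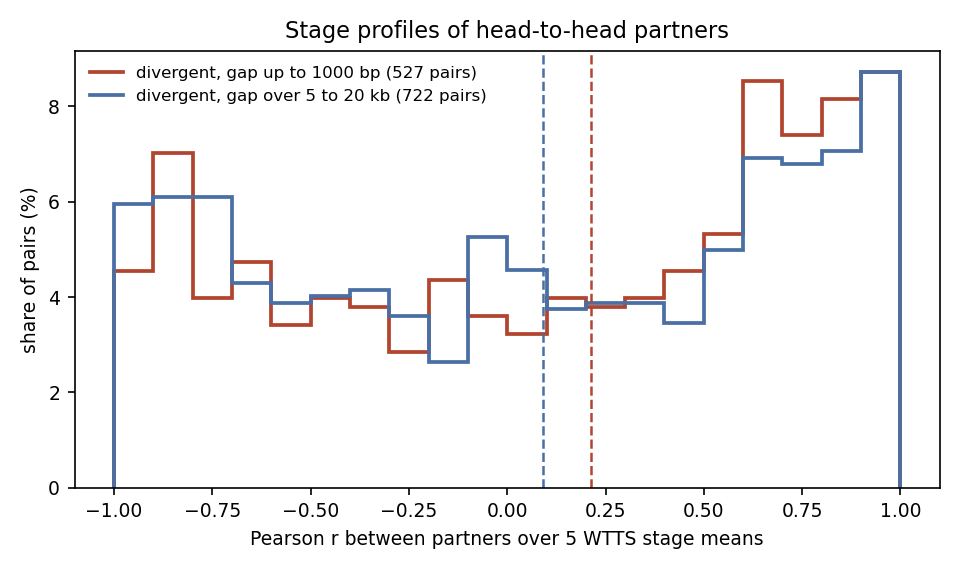
Share of pairs (vertical axis, %) by the Pearson correlation of the partners' WTTS stage profiles (horizontal axis, no unit) for divergent pairs within 1000 bp and for divergent pairs 5 to 20 kb apart, with the medians as dashed lines. The 2 outlines run close together over most of the range, with medians of 0.212 for the near pairs and 0.0901 for the distant pairs.

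A single feature kept its profile far better between families than partners shared one. The median r between family 1 and family 2 of the same feature was 0.836 for members of divergent pairs and 0.847 for features of distant pairs. The median r of partners was 0.164 in divergent pairs and 0.105 in distant pairs within family 1, and 0.191 and 0.0576 within family 2. When the minus partner was read in one family and the plus partner in the other, so that no library was shared, the medians were 0.151 and 0.0840. Partners had their highest stage mean at the same stage in 125 divergent pairs (23.7%), against 172 distant pairs (23.8%), where the product of the partners' peak shares gives 23.7% and 22.6%. These shares count stages 6 and 8 as separate peaks, although no tested feature was called between them.

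Among pairs whose partners both changed over the WTTS stages, the median correlation was higher in both layouts. Over all stages 662 of the 1100 tested members (60.2%) were called, beside a background of 62 percent. Both partners were called in 159 of 477 divergent pairs tested (33.3%), against 240 of 606 distant pairs (39.6%), and exactly 1 partner in 250 (52.4%), against 298 (49.2%). Within the 159 pairs the median r was 0.497, with 79 pairs (49.7%) at 0.5 or above and 41 (25.8%) at -0.5 or below. Within the 240 distant pairs the median was 0.365, with 108 (45.0%) and 75 (31.3%) pairs past those values. This restriction was added after the data had been seen.

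In RNA-seq, 152 divergent pairs moved in one direction between stages 8 and 11 and 57 split. Of the 619 pairs with both partners tested, 209 (33.8%) had both called, 301 had 1 called and 109 had none. In 119 pairs both fell, in 33 both rose, and in 57 one rose while the other fell, so that 72.7% of the 209 moved in the same direction. Among distant pairs 379 of 1042 (36.4%) had both called, with 110 both lower, 112 both higher and 157 opposite, or 58.6% in the same direction. The larger share among divergent pairs came with calls that were mostly decreases. Of the calls in these pairs 70.6% were lower, against 49.7% in distant pairs, and independent partners with those shares would move together in 58.5% of divergent pairs. The observed share lay 14.3 points above that for divergent pairs, and 8.57 points above the like value for distant pairs. Leaving out stage 8 family 1 or family 2 brought the same-direction pairs to 99 or 101 and the opposite pairs to 21 or 24, and without stage 11 family 2 there were 32 opposite pairs.

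The sizes of the partners' changes were weakly correlated. Across the 513 divergent pairs with both partners present, Pearson's r between the RNA-seq log2 changes of the partners was 0.217 and Spearman's rho was 0.0932. Across 556 distant pairs r was 0.102 and rho 0.0997, so the order of the layouts held for Pearson's r and not for the ranks. In single families r was 0.119 and 0.159 for divergent pairs and 0.103 and 0.119 for distant pairs, and across families, with no shared library, 0.134 and 0.107. The same feature's change correlated at 0.934 between the families for members of divergent pairs and at 0.952 for features of distant pairs. At a mean of at least 8 CPM r was 0.0673 in divergent pairs, against 0.0924 in distant pairs. In pairs with no overlapping feature it was 0.128, against 0.135. For the WTTS changes between stages 11 and 8 it was 0.0304 over 477 divergent pairs, against 0.112 over 606 distant pairs. Partners' log2 changes differed by a median of 1.12 in divergent pairs, against 1.50 in distant pairs.

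**Figure D2:**
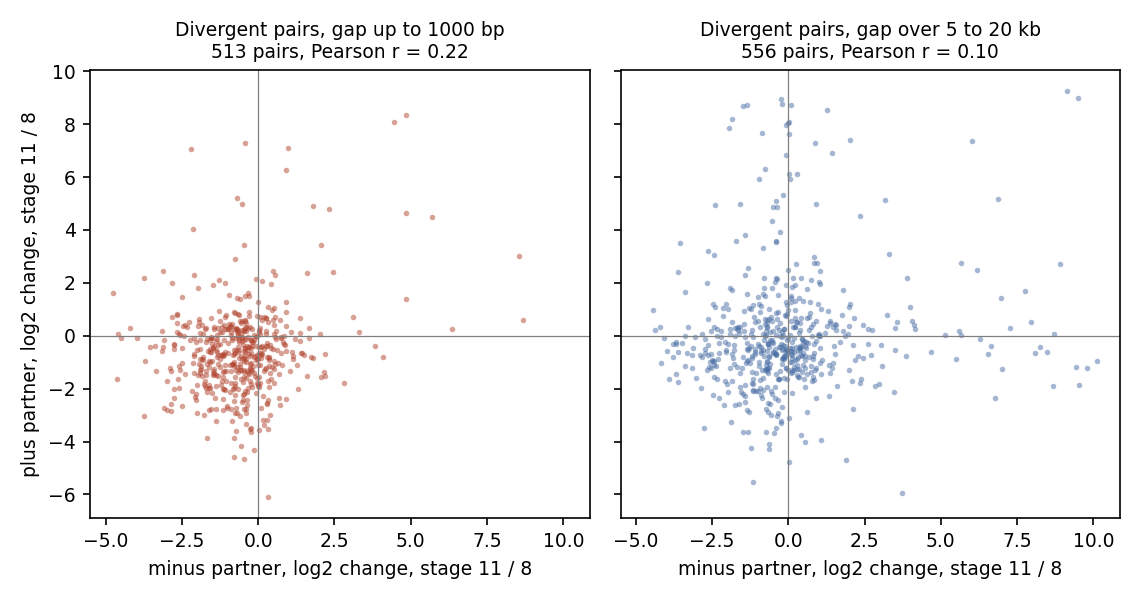
RNA-seq log2 change (stage 11 minus stage 8) of the plus partner (vertical axis) against that of the minus partner (horizontal axis), 1 point per pair, for divergent pairs within 1000 bp on the left and 5 to 20 kb apart on the right. Both clouds are broad and centred near or below 0, with r = 0.217 on the left and r = 0.102 on the right.

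A few pairs in which both partners had very large increases weighed on Pearson's r. In 4 of the 513 divergent pairs both partners had a log2 change of at least 4, and in 14 exactly 1 partner did. Among the 556 distant pairs these numbers were 4 and 61. Without those 4 pairs r was 0.114, and without the 4 distant pairs of that kind r was 0.0215 among distant pairs. Pairs with exactly 1 such partner stayed in, so a lower r follows from the choice of pairs removed. The fall thus does not measure the effect of large increases as such. The limit of 4 was chosen after the values had been seen. All 4 divergent pairs had low levels at stage 8 and gaps of 414 to 607 bp. On scaffold_1, with a gap of 607 bp, XLOC_001864 had 8.54 and 3.40 CPM at stage 11, against 0.114 and 0.116 CPM at stage 8 in families 1 and 2, and XLOC_000061 had 4.01 and 4.25 CPM at stage 11, against 0.145 and 0.223 CPM at stage 8. On scaffold_8, with a gap of 428 bp, XLOC_024404 had 5.51 and 9.28 CPM at stage 11, against 0.602 and 0.0662 CPM at stage 8, and XLOC_023232 had 7.59 and 14.2 CPM at stage 11, against 0.0610 and 0.0165 CPM at stage 8. In each of these 4 features both stage 11 values lay above both stage 8 values, and XLOC_024404 differed between the families at stage 8. All stage 8 values of these 4 features lay below 1 CPM, so they did not count as present through stage 8. The other pairs were XLOC_016858 with XLOC_016054 on scaffold_5 (log2 changes of 4.85 and 8.37, gap 595 bp) and XLOC_027625 with XLOC_026588 on scaffold_9 (4.83 and 4.63, gap 414 bp).

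The relation to the gap was not monotonic. The median profile r was 0.180 over 284 pairs with gaps of 1 to 100 bp, 0.273 over 127 pairs with gaps of 101 to 200 bp, 0.164 over 88 pairs with gaps of 201 to 500 bp and 0.495 over 28 pairs with gaps of 501 to 1000 bp. Beyond the limit it was 0.340 over 57 pairs with gaps of 1001 to 2000 bp and 0.0928 over 234 pairs with gaps of 2001 to 5000 bp. The closest pairs therefore did not have the highest values. For the RNA-seq changes r was 0.0668 over 274 pairs in the closest group, 0.0848 over 120 pairs at 101 to 200 bp, 0.384 over 87 pairs at 201 to 500 bp, 0.535 over 32 pairs at 501 to 1000 bp, 0.320 over 58 pairs at 1001 to 2000 bp and 0.298 over 197 pairs at 2001 to 5000 bp. Spearman's rho of those changes was 0.244 at 201 to 500 bp and 0.212 at 501 to 1000 bp, below Pearson's r in both. It was highest at 1001 to 2000 bp, at 0.326, and was 0.210 at 2001 to 5000 bp. The 4 pairs with a log2 change of at least 4 in both partners had gaps of 414 to 607 bp. They all lie in the groups of 201 to 500 bp and 501 to 1000 bp. The 501 to 1000 bp group had 9 pairs with both partners called, and all 9 moved in the same direction. Presence went the other way: both partners had at least 1 CPM in WTTS in 87.9% of pairs with gaps of at most 100 bp, in 83.0% at 101 to 200 bp, in 62.4% at 201 to 500 bp and in 43.8% at 501 to 1000 bp, the last close to the 44.9% of pairs 5 to 20 kb apart.

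**Figure D3:**
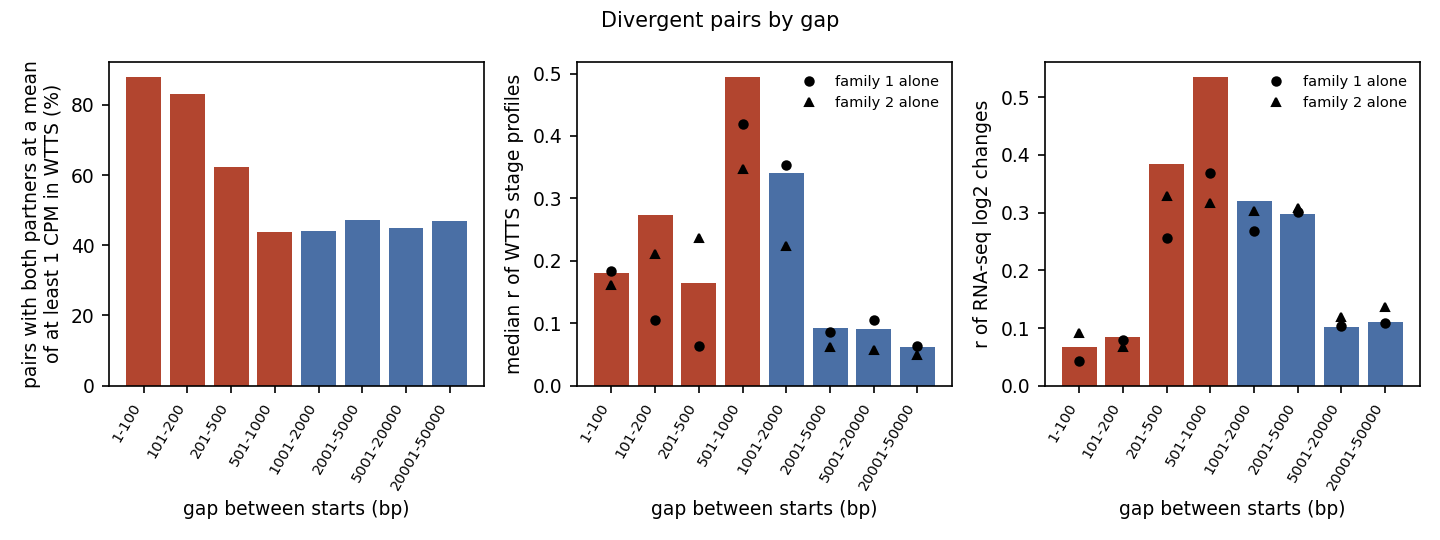
Share of pairs with both partners at a mean of at least 1 CPM in WTTS (left, %), median correlation of WTTS stage profiles (middle) and Pearson correlation of RNA-seq log2 changes between stages 11 and 8 (right), by gap (bp, 8 groups); bars are both families, points 1 family, red gaps up to 1000 bp and blue longer ones. Both correlations, which use Pearson's r, are highest at 501 to 1000 bp, where 28 and 32 pairs stand behind them. By Spearman's rho the changes are most alike at 1001 to 2000 bp (0.326). Pearson's r of the changes is lowest at 1 to 100 bp.

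Other close neighbours gave a scale for these values. Tandem pairs within 1000 bp had a median profile r of 0.418 over 125 pairs, an r of 0.611 between RNA-seq changes over 135 pairs, and 86 of 98 pairs with both called (87.8%) in the same direction. Convergent pairs within 1000 bp had a median profile r of 0.0159 over 271 pairs, an r of 0.230 between changes over 255 pairs (rho = 0.103), and 79 of 132 pairs (59.9%) in the same direction. On the change measures the divergent pairs thus lay near the convergent pairs in r and rho and below the tandem pairs.

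The pairs named next were taken by rank within each class, among 321 pairs tested in both methods. In these both partners had an RNA-seq level of at least 3 on the log2 CPM scale. For the pairs named, this holds for the log2 of the mean CPM over the stages and not always for the mean of log2 values. A feature nearly absent before stage 11 could thus pass. XLOC_009715 averaged 8.53 CPM in RNA-seq, with 1.44 and 1.41 CPM at stage 8. The files give each feature an identifier, a position and a strand but no gene name, so that no function can be given. Values are normalised CPM of families 1 and 2, and each log2 change is stage 11 minus stage 8 with its standard error from the edgeR fit. Of the 24 features named for their RNA-seq change or its absence, 21 were called in RNA-seq, a number that the naming rule fixed. In WTTS 16 of these were called in the same direction, and the other 5 had the same sign without passing the test. Over all features tested in WTTS, 21.4 percent were called between stages 11 and 8. The 21 were picked for large RNA-seq changes, so their WTTS calls do not measure how far the methods agree. Of the 3 not called in RNA-seq, 1 was called in WTTS.

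Among the 33 pairs in which both partners rose, the first was XLOC_014128 (scaffold_4:59492996-59531388, minus strand) and XLOC_012844 (scaffold_4:59531506-59559427, plus strand), with a gap of 118 bp. XLOC_014128 had 16.2 and 23.1 CPM at stage 11, against 5.32 and 4.00 CPM at stage 8 in RNA-seq, a change of 2.07 on the log2 scale (SE 0.31; adjusted p = 0.00185). XLOC_012844 had 445 and 306 CPM at stage 11, against 34.7 and 34.7 CPM at stage 8, a change of 3.44 on the log2 scale (SE 0.21; adjusted p = 6.03e-05). The groups did not overlap for either partner, and the plus partner was at the higher level in every one of these libraries and rose further. In WTTS XLOC_012844 rose as well, with 168 and 125 CPM at stage 11, against 30.2 and 16.2 CPM at stage 8, a change of 2.64 on the log2 scale (SE 0.45; adjusted p = 0.00141).

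In the pair XLOC_022023 (scaffold_7:91176653-91273307, minus) and XLOC_020887 (scaffold_7:91273533-91277280, plus), with a gap of 226 bp, the increases differed widely in size. XLOC_022023 had 17.1 and 24.4 CPM at stage 11, against 5.59 and 6.36 CPM at stage 8, a change of 1.79 on the log2 scale (SE 0.28; adjusted p = 0.00215). XLOC_020887 had 1117 and 1336 CPM at stage 11, against 37.5 and 44.6 CPM at stage 8, a change of 4.90 on the log2 scale (SE 0.23; adjusted p = 2.7e-05), and it rose in WTTS as well (change of 5.23 on the log2 scale, SE 0.42, adjusted p = 9.86e-06). In WTTS XLOC_022023 was not called (change of 0.75 on the log2 scale, SE 0.44, adjusted p = 0.257). Neither partner's stages overlapped in RNA-seq. The next pair was XLOC_022155 (scaffold_7:104741341-104853218, minus) and XLOC_021028 (scaffold_7:104853243-104884912, plus), only 25 bp apart. XLOC_022155, which overlaps 3 further features, had 55.0 and 34.9 CPM at stage 11, against 16.2 and 13.4 CPM at stage 8, a change of 1.60 on the log2 scale (SE 0.30; adjusted p = 0.00435). XLOC_021028 had 102 and 119 CPM at stage 11, against 19.8 and 23.3 CPM at stage 8, a change of 2.36 on the log2 scale (SE 0.19; adjusted p = 0.000151). In WTTS XLOC_021028 was called (change of 2.39 on the log2 scale, SE 0.42, adjusted p = 0.00177) and XLOC_022155 was not (change of 0.70 on the log2 scale, SE 0.54, adjusted p = 0.406). All stage 11 values were above all stage 8 values here too in RNA-seq, though XLOC_022155 was at 27.8 and 40.0 CPM at stage 6, overlapping the stage 11 values.

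Among the 119 pairs in which both partners fell, XLOC_016722 (scaffold_5:69043531-69116430, minus) and XLOC_015887 (scaffold_5:69116677-69138611, plus), with a gap of 247 bp, ranked first. XLOC_016722 had 14.3 and 10.0 CPM at stage 11, against 167 and 162 CPM at stage 8, a change of -3.76 on the log2 scale (SE 0.21; adjusted p = 4.4e-05). XLOC_015887 had 3.17 and 2.36 CPM at stage 11, against 22.1 and 23.4 CPM at stage 8, a change of -3.04 on the log2 scale (SE 0.26; adjusted p = 0.000205). The pair fell to a small share of its stage 8 level in both families, and XLOC_016722 fell in WTTS too (change of -2.96 on the log2 scale, SE 0.34, adjusted p = 0.000112), where XLOC_015887 was not called (change of -1.75 on the log2 scale, SE 0.62, adjusted p = 0.0635).

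XLOC_011191 (scaffold_3:94054162-94060841, minus) and XLOC_010228 (scaffold_3:94061000-94066737, plus), with a gap of 159 bp, fell by nearly the same factor in RNA-seq. XLOC_011191 had 1.33 and 1.87 CPM at stage 11, against 11.6 and 11.5 CPM at stage 8, a change of -2.85 on the log2 scale (SE 0.33; adjusted p = 0.000612). XLOC_010228 had 4.71 and 7.89 CPM at stage 11, against 47.3 and 43.8 CPM at stage 8, a change of -2.85 on the log2 scale (SE 0.28; adjusted p = 0.000327). The RNA-seq levels of the partners, not scaled to feature length, were several-fold apart at both stages while their RNA-seq changes were alike. In the pair XLOC_007878 (scaffold_2:97356723-97362965, minus) and XLOC_006614 (scaffold_2:97363206-97371883, plus), with a gap of 241 bp, XLOC_007878 had 3.86 and 9.90 CPM at stage 11, against 68.3 and 48.8 CPM at stage 8, a change of -3.09 on the log2 scale (SE 0.45; adjusted p = 0.00168). XLOC_006614 had 9.19 and 9.32 CPM at stage 11, against 58.4 and 65.4 CPM at stage 8, a change of -2.74 on the log2 scale (SE 0.21; adjusted p = 0.000141). No stage 11 value reached a stage 8 value in these features, and the families differed most for XLOC_007878 at stage 11. In WTTS XLOC_011191 had a change of -5.23 on the log2 scale (SE 1.21; adjusted p = 0.00885), with 0 and 0.510 CPM at stage 11. Both values lie below the level of 3 counts in those libraries (0.704 and 1.58 CPM), so the size of that change is uncertain. XLOC_010228 had a WTTS change of -2.20 on the log2 scale (SE 0.58; adjusted p = 0.0182), and the sizes of the 2 WTTS changes are not ranked here.

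Among the 57 pairs that split, XLOC_010644 (scaffold_3:23469033-23556364, minus) and XLOC_009715 (scaffold_3:23556427-23594664, plus) were only 63 bp apart. XLOC_010644 fell, with 15.4 and 9.75 CPM at stage 11, against 49.7 and 60.6 CPM at stage 8, a change of -2.13 on the log2 scale (SE 0.27; adjusted p = 0.00087). XLOC_009715 rose, with 19.4 and 26.7 CPM at stage 11, against 1.44 and 1.41 CPM at stage 8, a change of 4.02 on the log2 scale (SE 0.35; adjusted p = 0.000212). In RNA-seq the minus partner was far above the plus partner at stage 8, and at stage 11 the plus partner was above the minus partner in both families. CPM were not scaled to feature length. In WTTS the minus partner was still the higher at stage 11, with 14.9 and 14.8 CPM, against 7.47 and 8.68 CPM. The WTTS levels of XLOC_009715 were higher in turn at stages 11, 15 and 28 in both families, with 2.06 and 1.43 CPM (stage 6), 1.99 and 1.86 CPM (stage 8), 7.47 and 8.68 CPM (stage 11), 47.6 and 27.3 CPM (stage 15) and 126 and 75.2 CPM (stage 28), and the partners' profiles correlated at -0.66.

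XLOC_014308 (scaffold_4:78670127-78695012, minus) and XLOC_013029 (scaffold_4:78695151-78710447, plus), with a gap of 139 bp, crossed likewise in RNA-seq. XLOC_014308, which overlaps 1 feature on the other strand, had 12.2 and 10.3 CPM at stage 11, against 48.2 and 41.1 CPM at stage 8, a change of -1.99 on the log2 scale (SE 0.19; adjusted p = 0.000307). XLOC_013029 had 38.2 and 45.7 CPM at stage 11, against 11.2 and 12.7 CPM at stage 8, a change of 1.81 on the log2 scale (SE 0.20; adjusted p = 0.000538). The stages did not overlap for either feature in RNA-seq. In WTTS XLOC_013029 was not called, with 9.26 and 14.3 CPM at stage 11, against 10.3 and 10.7 CPM at stage 8, a change of 0.15 on the log2 scale (SE 0.44; adjusted p = 0.847), and its stages overlapped. XLOC_014308 was at 10.2 and 4.08 CPM at stage 11 there, so the partners crossed in family 2 and not in family 1.

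The pair XLOC_002536 (scaffold_1:84944131-84957983, minus) and XLOC_000738 (scaffold_1:84958070-84966547, plus), with a gap of 87 bp, split and also had the lowest profile correlation of the named pairs (r = -0.95). XLOC_002536 had 2359 and 2454 CPM at stage 11, against 312 and 371 CPM at stage 8 in RNA-seq, a change of 2.82 on the log2 scale (SE 0.19; adjusted p = 7.93e-05). XLOC_000738 had 10.3 and 10.4 CPM at stage 11, against 44.9 and 27.4 CPM at stage 8, a change of -1.80 on the log2 scale (SE 0.33; adjusted p = 0.00412). In WTTS XLOC_002536 was at 129 and 184 CPM (stage 6), 144 and 121 CPM (stage 8), 1161 and 1053 CPM (stage 11), 1084 and 1039 CPM (stage 15) and 715 and 336 CPM (stage 28). XLOC_000738 was at 26.5 and 19.2 CPM (stage 6), 32.8 and 15.8 CPM (stage 8), 11.9 and 6.64 CPM (stage 11), 7.43 and 7.35 CPM (stage 15) and 11.2 and 6.55 CPM (stage 28) in the same libraries. The minus partner was thus high from stage 11 on, at the stages at which the plus partner was low, although the WTTS change of XLOC_000738 between stages 11 and 8 did not pass the test (change of -1.37 on the log2 scale, SE 0.49, adjusted p = 0.0691).

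**Figure D4:**
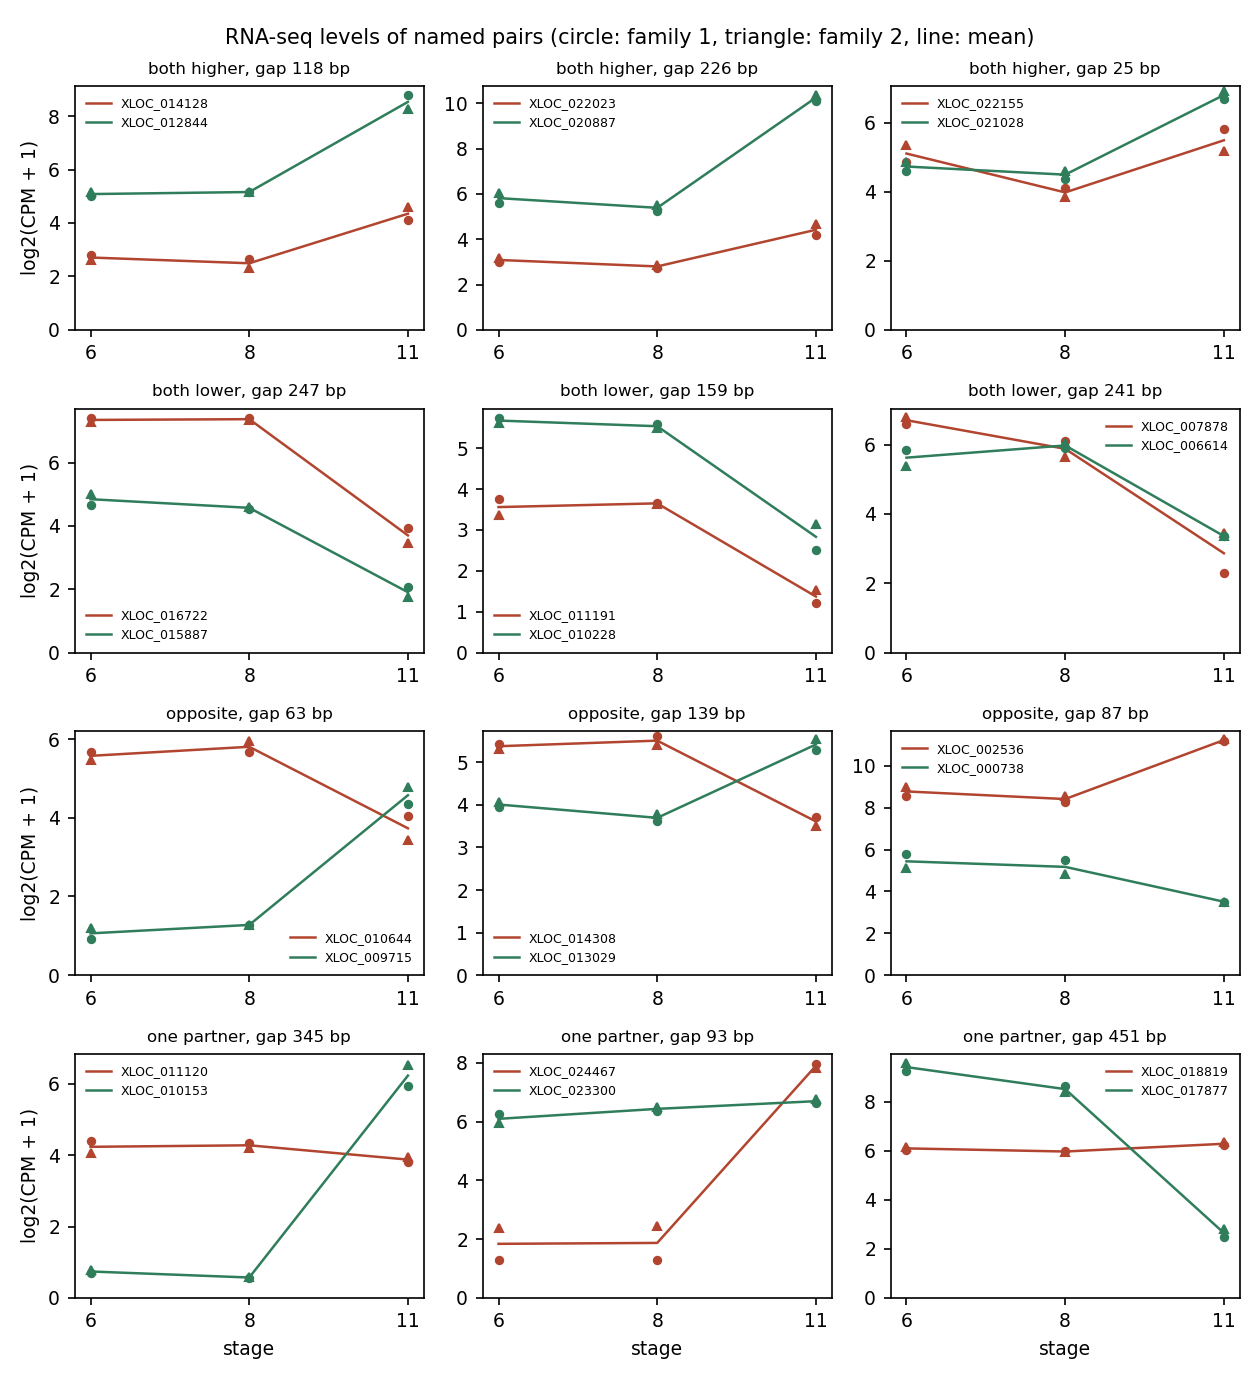
RNA-seq levels, as log2(CPM + 1), of both partners at stages 6, 8 and 11 in families 1 and 2, for the 12 divergent pairs named for their change between stages 11 and 8. Points are single libraries and lines family means; the partners' lines go the same way between stages 8 and 11 in the first 2 rows and cross in 2 of the 3 opposite pairs.

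In 301 pairs only 1 partner was called. Those whose other partner moved by less than 0.5 on the log2 scale were ranked by the called change. The pairs above were ranked by the smaller change of the partners, so the sizes cannot be compared between the lists. XLOC_010153 (scaffold_3:84956158-84974864, plus), which overlaps 1 feature on the other strand, had 59.9 and 92.1 CPM at stage 11, against 0.465 and 0.504 CPM at stage 8, a change of 7.29 on the log2 scale (SE 0.34; adjusted p = 2.53e-05). Its partner XLOC_011120 (scaffold_3:84950633-84955813, minus), 345 bp away, had 13.1 and 14.3 CPM at stage 11, against 19.3 and 17.5 CPM at stage 8, a change of -0.43 on the log2 scale (SE 0.22; adjusted p = 0.147). In WTTS XLOC_010153 rose at stage 11 (change of 5.09 on the log2 scale, SE 0.79, adjusted p = 0.000782) and was lower again at stage 28 than at stage 15 (change of -5.01 on the log2 scale, SE 0.75, adjusted p = 0.00121).

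XLOC_024467 (scaffold_8:52748412-52770309, minus) had 249.7 and 227 CPM at stage 11, against 1.47 and 4.41 CPM at stage 8, a change of 6.34 on the log2 scale (SE 0.75; adjusted p = 0.000683). Its partner XLOC_023300 (scaffold_8:52770402-52779008, plus), 93 bp away and overlapping 1 feature, had 97.5 and 108 CPM at stage 11, against 82.2 and 89.0 CPM at stage 8, a change of 0.27 on the log2 scale (SE 0.15; adjusted p = 0.181). In WTTS XLOC_024467 was still below XLOC_023300 at stage 11, with 22.4 and 34.7 CPM, against 56.8 and 38.3 CPM. The WTTS profiles of the 2 partners correlated at 0.90. In RNA-seq the minus partner overtook the plus partner at stage 11 in both families. XLOC_017877 (scaffold_6:21763795-21777936, plus) had 4.62 and 6.00 CPM at stage 11, against 399.6 and 337 CPM at stage 8, a change of -6.12 on the log2 scale (SE 0.24; adjusted p = 1.64e-05). Its partner XLOC_018819 (scaffold_6:21712865-21763344, minus), 451 bp away, had 73.6 and 81.2 CPM at stage 11, against 61.9 and 61.9 CPM at stage 8, a change of 0.32 on the log2 scale (SE 0.13; adjusted p = 0.0806), and DESeq2 called that change (adjusted p = 0.0256). In WTTS XLOC_018819 rose, with 193 and 83.7 CPM at stage 11, against 43.0 and 26.9 CPM at stage 8, a change of 1.98 on the log2 scale (SE 0.43; adjusted p = 0.00653), and XLOC_017877 fell (change of -5.15 on the log2 scale, SE 0.49, adjusted p = 2.78e-05), so that both partners were called there, in opposite directions. That call of XLOC_018819 was lost without stage 11 family 1 (adjusted p = 0.0729) and without stage 8 family 2 (adjusted p = 0.0697). In both methods the plus partner was the higher of the pair at stage 8 and the lower at stage 11. A change that was not called does not show that a partner was constant.

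Among pairs in which both partners changed over the WTTS stages, the closest profiles were those of XLOC_007421 (scaffold_2:37253213-37257604, minus) and XLOC_006142 (scaffold_2:37257842-37267702, plus), 238 bp apart, with r = 0.99. XLOC_007421 was at 79.6 and 83.2 CPM (stage 6), 68.7 and 60.8 CPM (stage 8), 8.36 and 10.2 CPM (stage 11), 14.4 and 10.5 CPM (stage 15) and 10.6 and 15.2 CPM (stage 28). XLOC_006142 was at 49.2 and 28.8 CPM (stage 6), 33.1 and 24.1 CPM (stage 8), 12.2 and 9.19 CPM (stage 11), 12.4 and 11.0 CPM (stage 15) and 11.0 and 12.1 CPM (stage 28). Both were high at stages 6 and 8 and low from stage 11 on, and both fell in RNA-seq, with a change of -1.67 on the log2 scale (SE 0.18; adjusted p = 0.000441) and a change of -2.11 on the log2 scale (SE 0.16; adjusted p = 0.000137). The next were XLOC_016968 (scaffold_5:103655821-103665676, minus) and XLOC_016166 (scaffold_5:103665727-103741174, plus), 51 bp apart, with r = 0.98. XLOC_016968 was at 38.9 and 29.5 CPM (stage 6), 33.3 and 26.9 CPM (stage 8), 8.06 and 6.64 CPM (stage 11), 2.48 and 0.525 CPM (stage 15) and 12.1 and 4.48 CPM (stage 28). XLOC_016166 was at 14.6 and 14.2 CPM (stage 6), 10.8 and 16.2 CPM (stage 8), 8.06 and 7.15 CPM (stage 11), 1.98 and 1.57 CPM (stage 15) and 4.74 and 6.90 CPM (stage 28). Both had their lowest values at stage 15 in each family.

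At the other end, next to the pair XLOC_002536 and XLOC_000738, stood XLOC_010637 (scaffold_3:22224088-22234543, minus) and XLOC_009704 (scaffold_3:22234556-22402603, plus), 13 bp apart, with r = -0.95. XLOC_010637 was at 4.80 and 4.44 CPM (stage 6), 2.28 and 5.57 CPM (stage 8), 1.49 and 8.68 CPM (stage 11), 17.3 and 17.8 CPM (stage 15) and 8.73 and 15.5 CPM (stage 28). XLOC_009704 was at 41.2 and 46.3 CPM (stage 6), 35.9 and 39.4 CPM (stage 8), 38.2 and 32.7 CPM (stage 11), 17.3 and 12.1 CPM (stage 15) and 14.8 and 14.8 CPM (stage 28). The minus partner was highest at the 2 latest stages and the plus partner at the 3 earliest, in both families.

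Among the 321 pairs, the highest WTTS levels of both partners were found for XLOC_001918 (scaffold_1:13808482-13842698, minus) and XLOC_000112 (scaffold_1:13842809-13932924, plus), 111 bp apart, with r = 0.85. XLOC_001918 was at 407 and 357 CPM (stage 6), 332 and 255 CPM (stage 8), 236 and 162 CPM (stage 11), 98.6 and 106 CPM (stage 15) and 72.3 and 148 CPM (stage 28). XLOC_000112 was at 344 and 383 CPM (stage 6), 283 and 298 CPM (stage 8), 364 and 304 CPM (stage 11), 172 and 154 CPM (stage 15) and 87.8 and 81.8 CPM (stage 28). Both were lower at stages 15 and 28 than at any earlier stage, in each family. XLOC_027047 (scaffold_9:39912378-39946171, minus) and XLOC_025956 (scaffold_9:39946507-39953413, plus), 336 bp apart, had r = 0.95. XLOC_027047 was at 191 and 288 CPM (stage 6), 227 and 222 CPM (stage 8), 151 and 86.3 CPM (stage 11), 54.5 and 42.5 CPM (stage 15) and 545 and 301 CPM (stage 28). XLOC_025956 was at 193 and 108 CPM (stage 6), 125 and 86.8 CPM (stage 8), 133 and 38.8 CPM (stage 11), 35.7 and 11.0 CPM (stage 15) and 249 and 83.8 CPM (stage 28). Both were lowest at stage 15 in each family and rose at stage 28, with a change of 3.12 on the log2 scale (SE 0.42; adjusted p = 0.000618) for XLOC_027047 and a change of 2.83 on the log2 scale (SE 0.71; adjusted p = 0.0181) for XLOC_025956. The call of XLOC_025956 was lost without stage 15 family 2 (adjusted p = 0.119) and without stage 28 family 1 (adjusted p = 0.142).

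**Figure D5:**
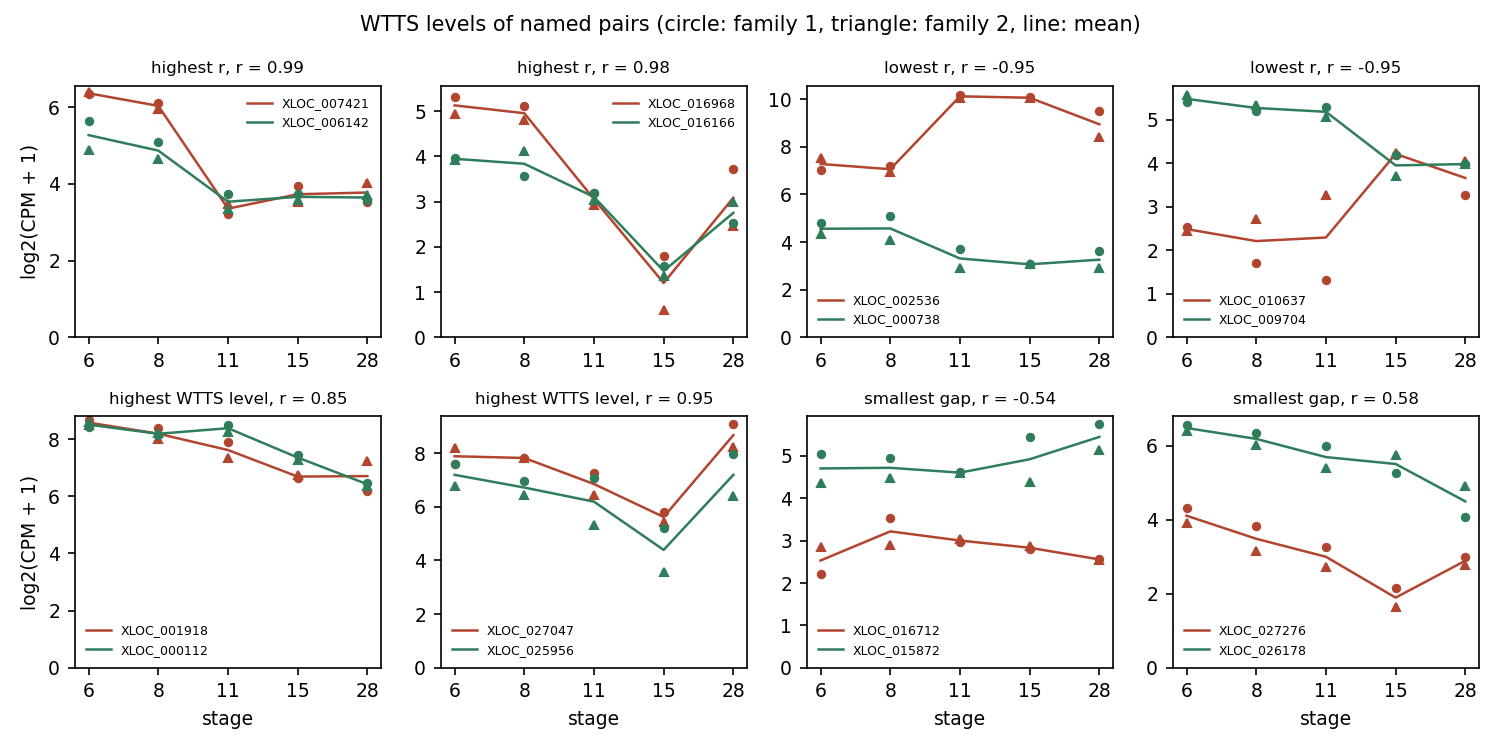
WTTS levels, as log2(CPM + 1), of both partners over the 5 stages in families 1 and 2, for the divergent pairs with the highest and lowest profile correlations, the highest levels and the smallest gaps. Points are single libraries and lines family means; XLOC_002536 is high from stage 11 on while XLOC_000738 is low, and both partners of XLOC_027047 and XLOC_025956 dip at stage 15.

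Of the 5 pairs with a gap of 1 bp, the 2 taken from the 321 pairs differed from each other. XLOC_016712 and XLOC_015872 on scaffold_5 have a gap of 1 bp, neither was called in RNA-seq between stages 11 and 8, and their WTTS profiles correlated at -0.54. XLOC_027276 and XLOC_026178 on scaffold_9 also have a gap of 1 bp, and theirs correlated at 0.58. Both of these fell in RNA-seq, XLOC_027276 with a change of -1.32 on the log2 scale (SE 0.20; adjusted p = 0.00206) and XLOC_026178 with a change of -1.07 on the log2 scale (SE 0.17; adjusted p = 0.00216). XLOC_027276 overlaps 1 further feature.

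The directions of the pairs were compared between methods last. Of the 152 divergent pairs that moved together in RNA-seq, 130 were tested in WTTS, 105 had the same signs there for both partners, and 14 were called so. Of the 57 that split, 44 were tested in WTTS, 32 had the same signs and 5 were called so. Of the 222 distant pairs that moved together, 147 were tested in WTTS, 106 had the same signs and 12 were called so. Of the 157 distant pairs that split, 98 were tested, 73 had the same signs and 6 were called so. In WTTS alone 23 divergent pairs had both partners called between stages 11 and 8, with 13 both lower, 2 both higher and 8 opposite, and 157 pairs had exactly 1 called. Among distant pairs 22 had both called, with 4 both lower, 9 both higher and 9 opposite. Most of the pairs with both partners called in RNA-seq did not pass the test in both partners in WTTS. The embryo WTTS libraries held at most 6276132 counts each, and whether depth made this difference was not tested.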

How the data were processed

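The authors deposited 1 table of whole-number read counts per feature for 26 libraries, with the position and strand of each of 27836 features; aligner, counter, annotation and genome build are not named by any source used here. Per the labels' protocols, RNA was extracted with Trizol, and libraries were made with Illumina or Ion Torrent protocols; WTTS added fragmentation, poly(A) enrichment, first-strand synthesis, size selection and PCR. No feature identifier matched the RefSeq gene table (0 of 27836), so positions are in the deposited file's own coordinates. Reads carry no molecular identifiers, so the precision given by the depth covers counting error only.

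Counts were tested with edgeR 4.0.16 (R 4.3.3; TMM, filterByExpr, glmQLFit and glmQLFTest, Benjamini-Hochberg adjustment at 0.05), separately for the 10 WTTS and the 6 RNA-seq embryo libraries and over all features that passed the filter. CPM were counts scaled to the TMM-adjusted library size. Profile correlations used stage means of log2(CPM + 1), with both partners at a mean of at least 1 CPM, and change correlations used the edgeR log2 changes; correlations across pairs are descriptions without p. The pipeline was tested on simulated data. P-values measure the spread between 2 families, each a pool of embryos.

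Pairs named in the text, of 321 eligible, were ranked by the smaller absolute change of the partners, by the called change where 1 partner was called, by profile r, by WTTS level and by gap; ties in gap were broken by identifier. The pairs, lists and rules were chosen with earlier results of these data known. The family number in the labels pairs the libraries of a method. After removal of stage means, libraries of one family correlated at 0.279 on average in WTTS (0.107 to 0.410 over 10 stage pairs) and 0.366 in RNA-seq (0.268 to 0.560 over 3), and a fit with family as a block was run. Alternatives were DESeq2 1.42.0, limma-voom (limma 3.58.1), DESeq2 size factors, other filters, pseudocounts and gap limits, single families, stages left out and each library left out.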

Additional observations from a re-analysis of the deposited data

How the results depend on the processing

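The median WTTS profile correlation was higher in divergent than in distant pairs under all 26 alternatives computed for both layouts (differences of 0.0327 to 0.209). For the correlation of RNA-seq changes, divergent pairs had the higher value under 14 of 17 alternatives (differences of -0.0250 to 0.178). They had the lower one by Spearman, at 8 CPM or more and with no overlapping feature. For the WTTS changes the difference was -0.0817. Other choices of the distant pairs are not among these 17. With gaps of 1 to 5 kb the distant value was 0.298, above the 0.217 of divergent pairs, so the order reversed. With gaps of 20001 to 50000 bp it was 0.111, below that of divergent pairs. Each group had 2 libraries. Blocking by family, the pairing in the labels, gave 176 members called between stages 15 and 11, with more lower than higher where the fit without it had 1 more higher, and 228 between stages 28 and 15, and moved no other count by over 1.5 times; with no filter on low counts the first was 143. Over single libraries left out, called members ranged over 551 to 735 (RNA-seq), 113 to 224 (WTTS, stages 11 and 8), 4 to 84 (15 and 11) and 31 to 149 (28 and 15), same-direction pairs over 99 to 159 and opposite pairs over 21 to 53. For most of these fits, in RNA-seq as in WTTS, the share of all features called is not given. The ranges of called members thus cannot be read as a trait of the members. Over the alternatives that kept all libraries, 68.8% to 78.3% of the divergent pairs with both partners called moved in the same direction. For the distant pairs the range was 57.7% to 60.6%. The divergent share was lowest with DESeq2 (68.8%, distant 58.4%) and next in pairs with no overlapping feature (69.6%, distant 59.5%), both below the main 72.7%. At an absolute log2 change of at least 1 there were 101 same-direction and 28 opposite divergent pairs, beside 143 and 93 distant pairs. The same-direction share that independent partners would give is not given for these alternatives. The divergent profile median was 0.164 and 0.191 in families 1 and 2, 0.151 across families, 0.273 at 8 CPM or more, 0.163 with DESeq2 size factors, 0.183, 0.251, 0.269, 0.272 and 0.278 without stages 6, 8, 11, 15 or 28, 0.172 to 0.254 without single libraries, and 0.497 where both partners changed (added after the data were seen). The distant median was 0.0252 with no filter on level, 0.130 with DESeq2 size factors, 0.157 and 0.153 without stages 11 or 28, 0.175 for gaps of 1 to 5 kb and 0.365 where both changed. The divergent change correlation was 0.119 and 0.159 in families 1 and 2, 0.134 across families, 0.142 and 0.173 with pseudocounts of 1 and 0.25, 0.0932 by Spearman, 0.311 with no filter on level, 0.0673 at 8 CPM or more, 0.0304 with WTTS changes, 0.172 for gaps up to 500 bp and 0.128 with no overlapping feature. The distant value was 0.119 in family 2, 0.133 with no filter, 0.135 with no overlapping feature and 0.298 for gaps of 1 to 5 kb. Of the checks on named features, 445 in RNA-seq had the same outcome, called or not called, with 4 calls gained and 2 lost. In WTTS 1709 had the same outcome, with 34 calls gained and 102 lost. Changes that stayed uncalled are among the same outcomes, so these are not counts of calls kept. The cause of these shifts was not tested.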

Other observations

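In trials 1 to 4 of WTTS on the adult pool, the member of a divergent pair with the most counts was XLOC_014822, on the minus strand of scaffold_4, whose partner XLOC_013576 on the plus strand starts 101 bp after its end. In the 7 WTTS trials, all on one RNA pool and thus no replicates of a condition, XLOC_014822 had 102200, 9215540, 2541253, 227015, 16326, 6374 and 11366 counts in the order of trials 1 to 7, up to 21.7% of a library. XLOC_013576 had 0, 118, 103, 72, 414, 778 and 1196 counts in the same trials, where 0 allows up to 3 counts. Trials 1 to 4 thus held many counts of the minus partner and few of the plus partner, and trials 5 to 7 fewer of the minus and more of the plus partner. XLOC_014822 was not the leading member in trials 5 to 7 or in RNA-seq of the pool, where XLOC_022814 led with 110808 counts. RNA-seq of that pool gave 10317 counts for XLOC_014822 and 3696 for XLOC_013576. The repeats of the adult female gave 11296 and 7381 counts for XLOC_014822 and 1002 and 1835 for XLOC_013576. The trials served to develop the assay, and what changed between them is not named by any source used here.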
